A study of Mus musculus with 8 samples.

Results

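The AKT and mTOR pathway components described here are 9 genes, *Akt1*, *Akt2*, *Mtor*, *Rptor*, *Rictor*, *Tsc1*, *Tsc2*, *Rheb* and *Deptor*, of 28712 genes listed by the authors. They were chosen by name, and each symbol had a single row. RNA came from 4T1, a single mouse mammary carcinoma line that serves as a model of triple-negative breast cancer (TNBC), kept at 37 °C in 1% O2 and 5% CO2. Cells past confluence received 0.5 μg/ml of a purified single-domain antibody (sdAb), an antibody fragment that per the study's methods carries a Tat domain and 3×Flag and His tags. The 3 groups were sdAb-Con (48 h), a control sdAb, sdAb#07.81 (24 h) and sdAb#07.81 (48 h), with 2 libraries in each, where sdAb#07.81 targets the stress protein NUPR1. The study's results name the purified sdAb-Con and sdAb#07.81 with cOdc1 as well. This is the C-terminus of ornithine decarboxylase, which the study used to have NUPR1 degraded. No group carried a genetic change according to the labels, whose genotype field holds the name of the sdAb. The Con group of 2 libraries was not analysed here, so there was no untreated reference.

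The authors deposited means over 4 libraries, from which the whole read count of each library was recovered exactly for 28595 genes, all 9 pathway genes among them. Levels are given as CPM, counts per 1000000 recovered reads after scaling by size factors. The libraries are called a and b within a group, and these letters do not correspond to the replicate numbers of the labels. The libraries held from 13065663 to 16122740 recovered reads. Libraries of a group differed by a median of 0.15 to 0.17 on the log2 scale, and the closest library of another group by 0.20 to 0.39. *Nupr1* RNA was at 248 and 208 CPM in sdAb-Con (48 h), at 203 CPM in each library of sdAb#07.81 (48 h), and at 108 and 148 CPM in sdAb#07.81 (24 h). The sdAb acts on the protein, so these RNA levels are no check of the labels. Of the epithelial markers, *Krt8*, *Krt18*, *Epcam* and *Krt14* had reads in all groups with summed levels of 1794 to 2167 CPM, and the count of *Cdh1* was not recovered. Of the leukocyte genes *Ptprc*, *Cd3e* and *Adgre1*, the summed level did not pass 0.380 CPM. *Pgr* had at most 2 reads in a library, whereas *Erbb2* was at 37.7 to 61.2 CPM and *Esr1* at 18.8 to 31.4 CPM. The fibroblast and endothelial markers summed to 54.4 to 89.3 CPM, most of it *Pdgfra*, at 42.3 to 86.5 CPM, and the rest largely *Col1a1*, at 2.65 to 14.9 CPM. *Krt14* was lower in sdAb#07.81 (48 h) than in the other groups, by -0.51 on the log2 scale against sdAb-Con (48 h) and by -1.30 against sdAb#07.81 (24 h) (limma adjusted p = 0.0402 and 1.40e-06), and was lower in sdAb-Con (48 h) against sdAb#07.81 (24 h) at -0.79 (limma adjusted p = 0.000281). *Pdgfra* was lower in both 48 h groups against sdAb#07.81 (24 h), at -0.76 and -0.81 (limma adjusted p = 0.000131 and 5.01e-05), as was *Erbb2*, at -0.42 and -0.52 (limma adjusted p = 0.0146 and 0.00250). *Esr1* was higher in sdAb-Con (48 h) against sdAb#07.81 (24 h), at 0.49 (limma adjusted p = 0.0117). *Krt8*, *Krt18*, *Epcam* and *Col1a1* were not called in any comparison. *Col1a1* was at 0.97 in sdAb#07.81 (48 h) and 0.94 in sdAb-Con (48 h) against sdAb#07.81 (24 h) (limma adjusted p = 0.0522 and 0.0521).

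mTOR is a protein kinase that works in separate complexes. In mTORC1 it is joined by raptor, the product of *Rptor*, which brings substrates to the kinase, and it drives translation and cell growth when amino acids and growth factors are present. In mTORC2 it is joined by rictor, the product of *Rictor*, and it phosphorylates AKT. AKT, activated downstream of PI3K, phosphorylates and restrains the TSC complex of tuberin (*Tsc2*) and hamartin (*Tsc1*), which otherwise switches off the small GTPase RHEB, the direct activator of mTORC1. DEPTOR binds mTOR in both complexes and restrains it. The pathway is controlled largely by phosphorylation, which RNA levels do not report. In bulk RNA, fewer cells of a kind and less RNA per cell cannot be told apart.

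*Rictor* was the only one of the 9 genes to pass the test between sdAb#07.81 and sdAb-Con at 48 h, with a level 1.61-fold higher under sdAb#07.81. This call was lost with the trend with transcript length removed, at 0.34 on the log2 scale (limma adjusted p = 0.0683), and with no filter on low counts (limma adjusted p = 0.107). *Akt1*, *Deptor*, *Tsc1* and *Tsc2* fell between 24 h and 48 h of sdAb#07.81, by up to 1.73-fold for *Deptor*. There was no sdAb-Con group at 24 h, so the action of sdAb#07.81 over time and time in culture cannot be told apart. When sdAb-Con (48 h) was set against sdAb#07.81 (24 h), *Akt1*, *Deptor*, *Mtor*, *Rictor* and *Tsc1* were lower, *Deptor* by 2.27-fold, and *Rheb* was higher. With the trend with length removed, *Mtor* and *Tsc1* were not called there, and the falls of *Tsc1* and *Tsc2* over time were not called either. *Rheb* passed there in 9 of 13 alternative settings. The markers *Krt14*, *Pdgfra* and *Erbb2* were lower in the same 2 comparisons as *Akt1* and *Deptor*. The other markers tested were not: *Krt8*, *Krt18* and *Epcam* lay between -0.17 and 0.14 and were not called. *Col1a1*, at 0.97 and 0.94, was not called either, and *Esr1*, at 0.35 and 0.49, was called higher in the second alone. The part of any marker in the falls of *Akt1* and *Deptor* was not tested. Differences are on the log2(CPM + 0.5) scale with the standard error (SE), tested with limma over 13859 genes with Benjamini-Hochberg adjustment, and a gene was called at an adjusted p under 0.05. Since the labels do not say whether the 2 libraries of a group came from separate cultures, the p-values measure only the spread between libraries.

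**Figure D1:**
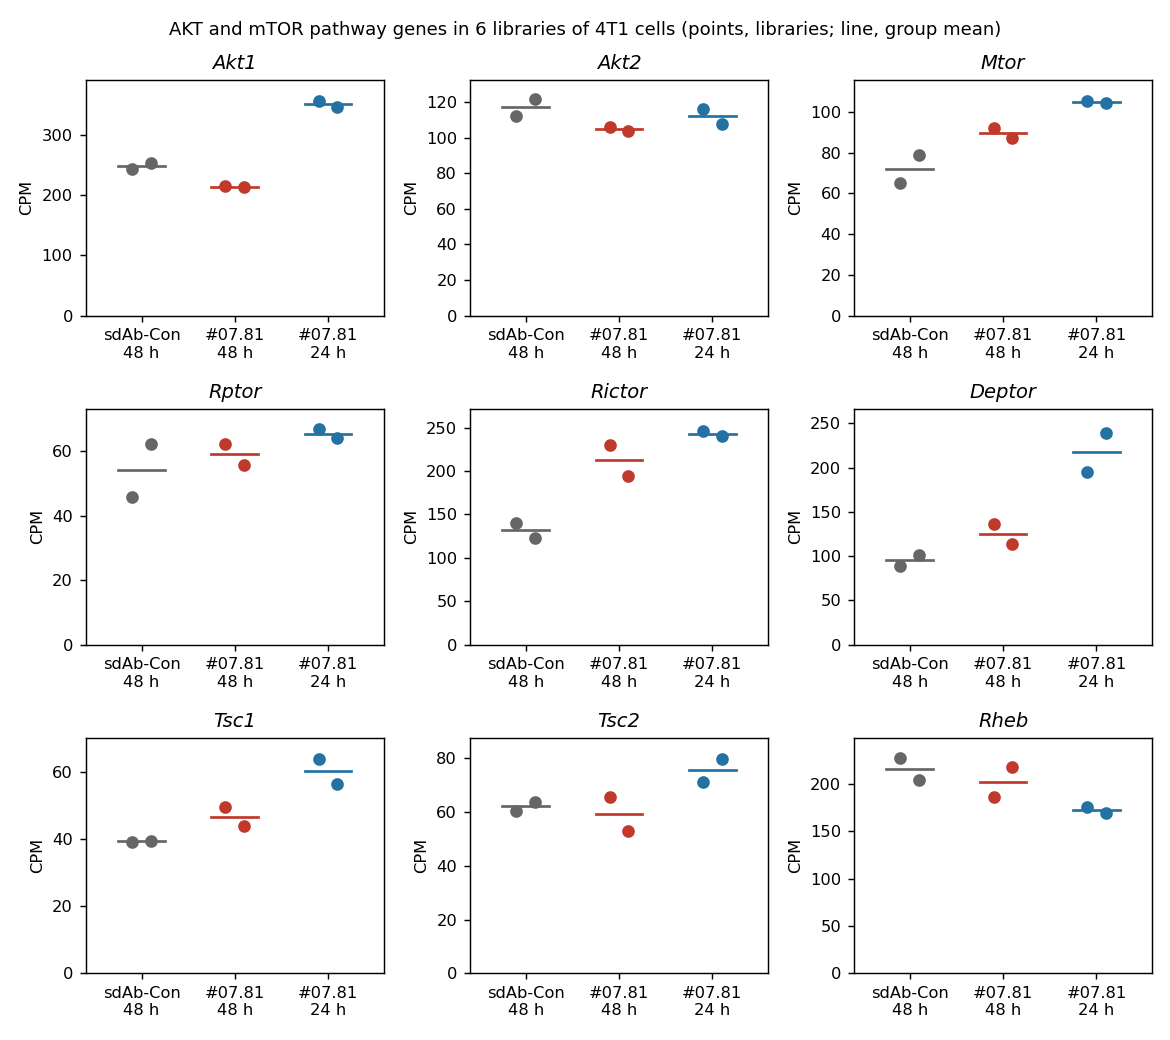
Level of each gene in CPM (y axes, linear from 0) in the 6 libraries, grouped on the x axes by sdAb and time, with points for libraries and a line for the mean of 2. *Akt1* and *Deptor* were highest in both sdAb#07.81 (24 h) libraries, at 345 to 355 CPM and 195 to 239 CPM, and *Rictor* was lowest in both sdAb-Con (48 h) libraries, at 123 and 140.0 CPM.

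Levels between genes were compared per kilobase of the longest annotated transcript. In sdAb-Con (48 h), *Akt1* stood highest at 92.3 ± 2.68 CPM per kb (SD, n = 2), followed by *Rheb* at 53.3 ± 4.11 and *Akt2* at 25.8 ± 1.48. *Rictor* came next at 14.1 ± 1.28 CPM per kb, above *Deptor* at 11.1 ± 1.07 and *Tsc2* at 9.89 ± 0.354. *Mtor* at 8.40 ± 1.14 and *Rptor* at 8.20 ± 1.78 CPM per kb were closer to each other than the spread of their libraries, and *Tsc1* was lowest at 5.11 ± 0.0114. The upper end of this order, *Akt1* then *Rheb*, was the same in all 3 groups, and *Tsc1* was lowest in each. In sdAb#07.81 (24 h), *Rictor* at 26.1 ± 0.365, *Deptor* at 25.4 ± 3.67 and *Akt2* at 24.6 ± 1.38 CPM per kb lay within the spread of *Deptor*.

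*Akt1* and *Akt2* encode closely related kinases of the pathway, and only *Akt1* passed a test. *Akt1* was at 243 and 253 CPM in sdAb-Con (48 h), at 215 and 212 CPM in sdAb#07.81 (48 h), and at 355 and 345 CPM in sdAb#07.81 (24 h). The sdAb#07.81 (24 h) libraries were the highest and the sdAb#07.81 (48 h) libraries the lowest, with no overlap between groups. *Akt1* fell 1.64-fold from 24 h to 48 h of sdAb#07.81, a log2 difference of -0.71 (SE 0.105; limma adjusted p = 1.86e-05). At 48 h its difference between sdAb#07.81 and sdAb-Con, -0.22 (95% confidence interval -0.44 to 0.00), was not called (limma adjusted p = 0.192). *Akt2* was at 112 and 122 CPM, at 106 and 104 CPM, and at 116 and 107 CPM in the same order of groups. Relative to its level, its libraries spanned a narrower range than those of any other of the 9 genes, and its log2 differences of -0.16, -0.09 and 0.06 in the 3 comparisons did not pass the test. The intervals still allowed *Akt2* differences from -0.39 to 0.30.

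*Mtor*, the kinase itself, was at 65.0 and 78.8 CPM in sdAb-Con (48 h), at 92.3 and 87.2 CPM in sdAb#07.81 (48 h), and at 105 and 104 CPM in sdAb#07.81 (24 h). The groups did not overlap and stood in that order. *Mtor* was below its sdAb#07.81 (24 h) level in sdAb-Con (48 h), with a log2 difference of -0.54 (SE 0.120; limma adjusted p = 0.000833). With the trend with length removed this difference was -0.11 and was not called (limma adjusted p = 0.419). The steps on either side of sdAb#07.81 (48 h), 0.32 above sdAb-Con (48 h) and -0.22 against sdAb#07.81 (24 h), were not called (limma adjusted p = 0.0875 and 0.144). *Rptor*, which defines mTORC1, was at 45.8 and 62.4 CPM, at 62.3 and 55.9 CPM, and at 66.8 and 64.1 CPM. Its sdAb-Con (48 h) libraries were far apart and spanned both libraries of sdAb#07.81 (48 h). None of its differences, 0.14, -0.15 and -0.29, was called (limma adjusted p = 0.552, 0.415 and 0.0901).

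*Rictor*, which defines mTORC2, was at 140.0 and 123 CPM in sdAb-Con (48 h), at 231 and 195 CPM in sdAb#07.81 (48 h), and at 246 and 241 CPM in sdAb#07.81 (24 h). Both sdAb-Con (48 h) libraries were well below the other 4, and the highest of the sdAb#07.81 (48 h) libraries stayed below the sdAb#07.81 (24 h) libraries. At 48 h *Rictor* was higher under sdAb#07.81 by 0.69 on the log2 scale (95% confidence interval 0.45 to 0.93; limma adjusted p = 0.000961), a call that did not hold with the length trend removed or with no filter on low counts. Against sdAb#07.81 (24 h) it was lower in sdAb-Con (48 h), with a difference of -0.89 (SE 0.116; limma adjusted p = 2.98e-06), while sdAb#07.81 (48 h) differed by -0.20 (limma adjusted p = 0.174). *Deptor*, the inhibitor that both complexes share, was at 88.6 and 102 CPM in sdAb-Con (48 h), at 137 and 114 CPM in sdAb#07.81 (48 h), and at 195 and 239 CPM in sdAb#07.81 (24 h). The groups stood in the same order as for *Mtor* and *Rictor* and did not overlap. *Deptor* fell from 24 h to 48 h of sdAb#07.81, with a difference of -0.79 (SE 0.128; limma adjusted p = 4.85e-05). Against sdAb#07.81 (24 h) it was also lower in sdAb-Con (48 h), with a difference of -1.18 (limma adjusted p = 2.85e-07). At 48 h its 0.39 in favour of sdAb#07.81 missed the threshold (limma adjusted p = 0.0536), and it passed in 5 of 13 alternative settings.

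*Tsc1* and *Tsc2* encode the partners of the complex that switches RHEB off. *Tsc1* was at 39.3 and 39.5 CPM in sdAb-Con (48 h), at 49.5 and 43.9 CPM in sdAb#07.81 (48 h), and at 63.9 and 56.6 CPM in sdAb#07.81 (24 h). The groups did not overlap, with sdAb-Con (48 h) lowest. *Tsc1* fell from 24 h to 48 h of sdAb#07.81, with a log2 difference of -0.36 (SE 0.128; limma adjusted p = 0.0262) and was below its sdAb#07.81 (24 h) level in sdAb-Con (48 h), with -0.60 (limma adjusted p = 0.000578). With the trend with length removed, these *Tsc1* differences were -0.26 and -0.22 and were not called (limma adjusted p = 0.0821 and 0.134). *Tsc2* was at 60.4 and 63.6 CPM, at 65.6 and 52.7 CPM, and at 71.1 and 79.7 CPM. Its sdAb#07.81 (48 h) libraries lay on either side of the sdAb-Con (48 h) libraries, and the sdAb#07.81 (24 h) libraries were above all others. *Tsc2* fell from 24 h to 48 h of sdAb#07.81, with a difference of -0.35 (SE 0.129; limma adjusted p = 0.0320). Both of these falls were lost without sdAb#07.81 (48 h) library b, where *Tsc1* differed by -0.28 (limma adjusted p = 0.205) and *Tsc2* by -0.20 (limma adjusted p = 0.354). Without sdAb#07.81 (24 h) library a the fall of *Tsc1* was lost as well, at -0.28 (limma adjusted p = 0.153), and without library b that of *Tsc2*, at -0.28 (limma adjusted p = 0.150). Neither fall passed with total-count scaling (limma adjusted p = 0.0506 for *Tsc1* and 0.0626 for *Tsc2*) or with no filter on low counts (limma adjusted p = 0.0613 and 0.110).

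*Rheb*, the activator of mTORC1, moved the other way. It was at 227 and 204 CPM in sdAb-Con (48 h), at 186 and 217 CPM in sdAb#07.81 (48 h), and at 176 and 169 CPM in sdAb#07.81 (24 h). The sdAb#07.81 (24 h) libraries were the lowest, and the groups at 48 h overlapped. Its level in sdAb-Con (48 h) was above that in sdAb#07.81 (24 h) by 0.32 on the log2 scale (SE 0.114; limma adjusted p = 0.0236). This call was lost without sdAb-Con (48 h) library a, at 0.25 (limma adjusted p = 0.182), and without sdAb#07.81 (24 h) library b, at 0.29 (limma adjusted p = 0.0972). It was also lost with upper-quartile scaling, at 0.25 (limma adjusted p = 0.0796), where 7 of the 9 genes were lower and 0 higher, and with no filter on low counts (limma adjusted p = 0.0864), and so passed in 9 of 13 alternative settings. It differed by 0.22 from 24 h to 48 h of sdAb#07.81 (limma adjusted p = 0.121) and, at 48 h, between the sdAbs by -0.10 (limma adjusted p = 0.621).

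**Figure D2:**
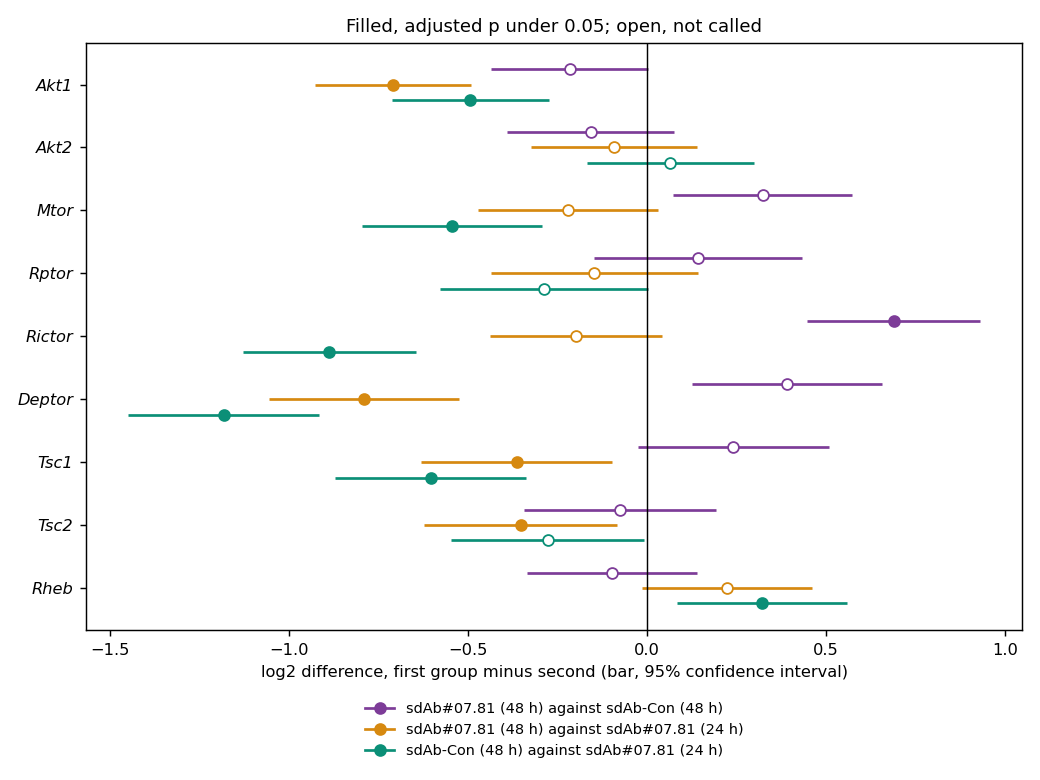
Log2 difference of each gene (x axis, first group of the comparison minus the second, with bars for the 95% confidence interval) in the 3 comparisons, marked by color, with filled points for an adjusted p under 0.05. *Rictor* at 0.69 is the only filled point for sdAb#07.81 (48 h) against sdAb-Con (48 h), and *Deptor* at -1.18 is the point farthest from 0.

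Counted over the 9 genes, sdAb#07.81 (48 h) against sdAb-Con (48 h) gave 1 higher and 0 lower. Over all tested genes, 6.83% were called higher and 3.77% lower in that comparison, 946 and 522 genes, a split that was 1194 and 309 with upper-quartile scaling. The total of 1468 called genes was 569 without sdAb-Con (48 h) library a, 397 without library b and 204 without sdAb#07.81 (48 h) library a. The libraries of these groups did not overlap for 6 of the 9 genes, beside 58.7% of all tested genes. The median log2 difference of the 9 genes was 0.14, beside -0.02 over all tested genes. The count of 0 lower genes came from limma at the adjusted threshold, and no gene of the 9 with a negative difference had an unadjusted p under 0.05, the lowest being 0.0522 for *Akt1*.

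Of the 9 genes, 4 were lower and 0 higher from 24 h to 48 h of sdAb#07.81, beside 22.2% of all tested genes called lower and 21.2% called higher. All 9 had libraries that did not overlap, as had 71.2% of all tested genes. The median difference of the 9 genes was -0.22, beside -0.01 over all tested genes, and the only gene of the 9 with a positive difference was *Rheb*, whose unadjusted p was 0.0644. For sdAb-Con (48 h) against sdAb#07.81 (24 h), 5 of the 9 were lower and 1 higher, beside 25.8% and 25.1% of all tested genes. In 8 of the 9 the libraries did not overlap, beside 74.6% of all tested genes, and the median difference was -0.49, beside 0.00 over all tested genes. In this last comparison the sdAb and the time both differ and cannot be told apart. Each pair of comparisons shares a group, so their differences are not independent: for every gene, sdAb#07.81 (48 h) against sdAb#07.81 (24 h) is the sum of the other two.

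Differences moved with transcript length across all genes, and most of these 9 genes have long transcripts. Across 13698 tested genes with an annotated length, Spearman's rho between length and log2 difference was 0.46 for sdAb#07.81 (48 h) against sdAb-Con (48 h), -0.13 for sdAb#07.81 (48 h) against sdAb#07.81 (24 h), and -0.33 for sdAb-Con (48 h) against sdAb#07.81 (24 h), a description across genes, which are not replicates and share their libraries. The longest transcript of *Rictor* is 9312 bases, longer than that of 97.2% of tested genes. Those of *Mtor* (8564 bases), *Deptor* (8547 bases), *Tsc1* (7702 bases) and *Rptor* (6594 bases) are longer than that of 90.2% or more of tested genes. *Akt1*, with 2690 bases, is the shortest of the 9 and lies below the median length of 3141 bases.

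With the trend with length removed, none of the 9 genes was called between sdAb#07.81 and sdAb-Con at 48 h, and their median difference was -0.08. *Rictor* was then at 0.34 (limma adjusted p = 0.0683), *Deptor* at 0.07 (limma adjusted p = 0.779) and *Mtor* at 0.00 (limma adjusted p = 0.991). In the 24 h to 48 h comparison of sdAb#07.81, *Akt1* at -0.72 and *Deptor* at -0.68 remained lower (limma adjusted p = 9.46e-06 and 9.91e-05). *Tsc1* and *Tsc2* at -0.26 each were no longer called, and *Rheb* at 0.29 was (limma adjusted p = 0.0350). For sdAb-Con (48 h) against sdAb#07.81 (24 h), *Akt1* at -0.58, *Deptor* at -0.75, *Rictor* at -0.43 and *Rheb* at 0.41 passed the test, and *Mtor* at -0.11 and *Tsc1* at -0.22 did not (limma adjusted p = 0.419 and 0.134). What part length or RNA integrity has in these differences was not tested.

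**Figure D3:**
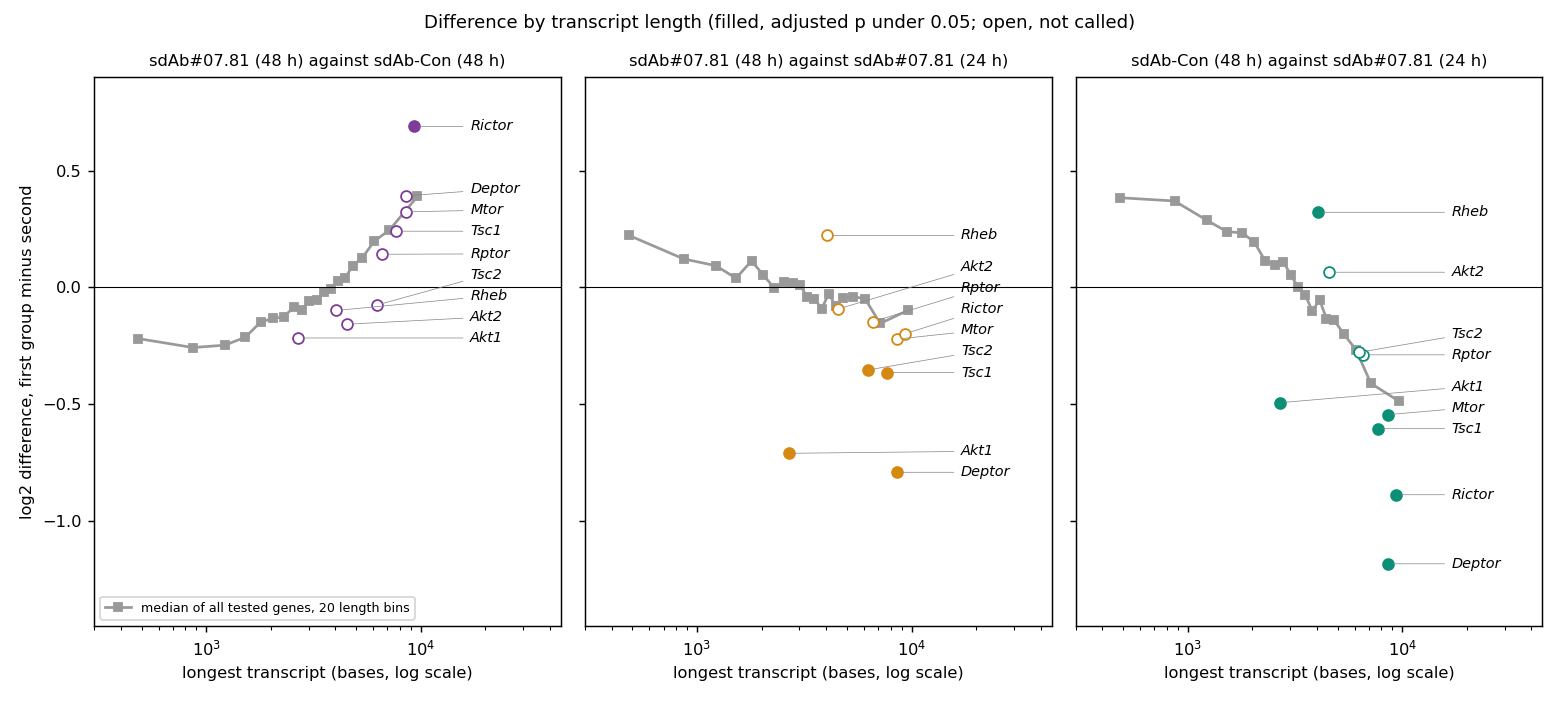
Log2 difference (y axes, first group minus second) against the longest transcript of each gene in bases (x axes, log scale) in the 3 comparisons, with the 9 genes as circles, filled where the adjusted p was under 0.05, and gray squares for the median of all tested genes in 20 bins of length. For sdAb#07.81 (48 h) against sdAb-Con (48 h), *Deptor*, *Mtor* and *Tsc1* lie close to the gray line and *Rictor* at 0.69 above it, whereas *Akt1* at -0.71 and *Deptor* at -0.79 lie far below it in the middle panel.

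*Rictor* and *Mtor* were called lower and *Rheb* higher in sdAb-Con (48 h) against sdAb#07.81 (24 h), and their promoters are printed here from RefSeq, build GRCm38.p6, from 250 bases before to 50 bases after the annotated start. The *Rictor* promoter is chr15:6708131-6708430 on the + strand, that of *Mtor* is chr4:148448332-148448631 on the + strand, and that of *Rheb* is chr5:24842312-24842611 on the - strand. Capitals mark matches on either strand to 5 motifs, none of which overlap each other in these windows.
Rictor: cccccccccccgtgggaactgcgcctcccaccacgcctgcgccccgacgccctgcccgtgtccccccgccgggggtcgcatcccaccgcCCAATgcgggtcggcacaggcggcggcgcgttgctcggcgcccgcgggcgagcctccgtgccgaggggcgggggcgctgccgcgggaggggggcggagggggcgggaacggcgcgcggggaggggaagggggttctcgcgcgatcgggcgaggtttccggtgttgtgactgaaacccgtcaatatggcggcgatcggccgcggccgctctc
Mtor: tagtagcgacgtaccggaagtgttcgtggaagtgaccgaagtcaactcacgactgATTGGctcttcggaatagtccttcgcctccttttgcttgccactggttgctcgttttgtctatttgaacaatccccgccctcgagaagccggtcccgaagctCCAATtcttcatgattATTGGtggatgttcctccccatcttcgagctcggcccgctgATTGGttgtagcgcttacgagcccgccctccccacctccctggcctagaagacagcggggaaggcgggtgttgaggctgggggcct
Rheb: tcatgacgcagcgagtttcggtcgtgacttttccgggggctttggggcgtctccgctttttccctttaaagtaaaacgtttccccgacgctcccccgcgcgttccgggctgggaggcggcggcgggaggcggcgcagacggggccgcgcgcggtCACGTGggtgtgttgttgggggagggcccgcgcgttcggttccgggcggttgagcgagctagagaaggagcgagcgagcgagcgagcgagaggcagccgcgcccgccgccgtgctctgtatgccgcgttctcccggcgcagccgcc

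The motifs were the CCAAT box (CCAAT), the E-box that MYC and TFEB proteins can bind (CACGTG), the FoxO core (GTAAACA), a composite site of ATF4 and C/EBP proteins (TGATGNAAN) and a heat shock element (GAANNTTC). The table held 12 promoters for 8 of the 9 genes, without *Deptor*. A CCAAT box was in 3 of the 12, with 4 in that of *Mtor* and 1 each in that of *Rictor* and in 1 of those of *Akt2*, and 37.4% of all 32851 promoters in the table had at least 1. *Rheb* had 1 E-box, a motif present in 7.15% of all promoters. A FoxO core was in 1 of the promoters of *Akt1* (3.65% of all promoters), and the ATF4 composite was in 1 of those of *Akt2* (3.95% of all promoters). The heat shock element, found in 7.86% of all promoters, was in none of the 12. These matches describe letters only. The *Rictor* window was 78.3% G and C, *Rheb* 70.0% and *Mtor* 56.7%.

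Upstream of AKT, 15 genes of PI3K, its adaptors and the phosphatases that oppose it were tested. At 48 h under sdAb#07.81 against sdAb-Con, 4 of them were higher and 0 lower, beside 6.83% and 3.77% of all tested genes, with a list median of 0.31. *Pik3r1*, a regulatory subunit of PI3K, was at 58.0 and 54.1 CPM in sdAb-Con (48 h) and at 105 and 81.7 CPM in sdAb#07.81 (48 h), a difference of 0.72 (SE 0.134; limma adjusted p = 0.00226). *Irs2*, an adaptor of the insulin receptor, rose by 0.42 (limma adjusted p = 0.0244) and *Pik3ca*, a catalytic subunit, by 0.39 (limma adjusted p = 0.0314). With the trend with length removed, *Pik3r1* alone of the list was called, at 0.47 (limma adjusted p = 0.0352), and with no filter on low counts 0 were. Without sdAb-Con (48 h) library a 2 of the 15 were called, without library b 1, and without sdAb#07.81 (48 h) library a 0. Over time under sdAb#07.81, from 24 h to 48 h, 4 were higher and 4 lower, beside 21.2% and 22.2% of all tested genes, with a median of -0.01. *Pik3r3*, another regulatory subunit, rose by 0.91 and *Pik3r1* by 0.53, whereas *Inpp4b*, a lipid phosphatase, was lower at -1.22, *Irs1*, an adaptor like *Irs2*, at -0.79 and *Phlpp2*, a phosphatase of AKT, at -0.43. In sdAb-Con (48 h) against sdAb#07.81 (24 h), 1 was higher (*Pik3r3*, 0.88) and 7 lower, led by *Inpp4b* at -1.40, *Irs1* at -1.16 and *Phlpp2* at -0.76, beside 25.1% and 25.8% of all tested genes, with a median of -0.24.

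Of the other subunits and partners of the mTOR complexes, 8 of 9 were tested and few were called. None was called between the sdAbs at 48 h, beside 6.83% higher and 3.77% lower of all tested genes, where the list median was -0.08, and 1 gene, *Akt1s1*, had an unadjusted limma p under 0.05. With only the 4 libraries compared, or without either sdAb#07.81 (24 h) library, 1 of the list was called lower there. *Tti1*, a chaperone partner needed to assemble mTOR, was the only call in each of the other comparisons, where 22.2% and 25.8% of all tested genes were called lower. It was at 28.4 and 28.9 CPM in sdAb-Con (48 h), at 33.4 and 33.7 CPM in sdAb#07.81 (48 h) and at 56.4 and 48.1 CPM in sdAb#07.81 (24 h). *Tti1* fell from 24 h to 48 h of sdAb#07.81, at -0.63 (limma adjusted p = 0.000812) and was below its sdAb#07.81 (24 h) level in sdAb-Con (48 h), at -0.85 (limma adjusted p = 2.77e-05). *Mlst8*, the subunit common to both complexes, differed by -0.07, -0.43 and -0.35 in the 3 comparisons, none of them called. Between the times of sdAb#07.81, 2 of the list were called without sdAb#07.81 (24 h) library b, and in sdAb-Con (48 h) against sdAb#07.81 (24 h) 2 were with the trend with length removed.

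The Rag GTPases and their regulators carry the amino acid signal to mTORC1 at the lysosome, and 24 of 25 listed genes were tested. None was called at 48 h between the sdAbs, beside 6.83% higher and 3.77% lower of all tested genes, with a list median of -0.09, 8 genes at an unadjusted limma p under 0.05, and 1 to 4 calls in 9 of 14 alternative settings. From 24 h to 48 h of sdAb#07.81, 7 were higher and 5 lower, beside 21.2% and 22.2% of all tested genes, with a median of 0.07. *Lamtor2*, a part of the Ragulator scaffold, was at 24.7 and 27.4 CPM at 24 h and at 48.6 and 53.6 CPM at 48 h, a rise of 0.96 (SE 0.129; limma adjusted p = 6.41e-06). *Castor1*, an arginine sensor, rose by 0.73 and *Slc38a9*, a lysosomal amino acid transporter, by 0.60. *Kptn*, of the KICSTOR complex, was lower at -0.65, and *Lamtor1*, of the same Ragulator scaffold as *Lamtor2*, at -0.57. Without sdAb#07.81 (48 h) library a, 7 of the list were called, and without library b 5. In sdAb-Con (48 h) against sdAb#07.81 (24 h), 8 were higher and 5 lower, beside 25.1% and 25.8% of all tested genes, led by *Lamtor2* at 1.18, *Castor1* at 1.12 and *Nprl2*, of the GATOR1 complex, at 0.66, and with *Mios* of GATOR2 at -0.50 and *Depdc5* of GATOR1 at -0.45 among the lower. The list median there was 0.13, and 8 of the list were called without sdAb-Con (48 h) library a.

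Of 9 genes by which stress reaches mTORC1, 7 were tested, and 2 were lower and 0 higher at 48 h under sdAb#07.81, beside 3.77% and 6.83% of all tested genes. This split was 1 lower and 1 higher with upper-quartile scaling, and 2 lower and 1 higher with only the 4 libraries compared. *Ddit4*, whose product REDD1 restrains mTORC1 through the TSC complex, was at 365 and 266 CPM in sdAb-Con (48 h), at 160 and 204 CPM in sdAb#07.81 (48 h), and at 120 and 129 CPM in sdAb#07.81 (24 h). The 3 groups did not overlap. *Ddit4* was lower at 48 h under sdAb#07.81, with a difference of -0.78 (SE 0.140; limma adjusted p = 0.00166), and was so with the trend with length removed, at -0.63 (limma adjusted p = 0.0121), but not with no filter on low counts, where 0 of the list were called. *Trib3*, a pseudokinase that binds AKT, was the other call of that comparison at -0.42 (limma adjusted p = 0.0455), lost with the trend removed at -0.30 (limma adjusted p = 0.225). Without either sdAb-Con (48 h) library, or without sdAb#07.81 (48 h) library a, 1 of the list was called. From 24 h to 48 h of sdAb#07.81, *Sesn3*, a sestrin, rose by 0.98, *Trib3* by 0.59 and *Ddit4* by 0.53, with none lower and a list median of 0.27, beside 21.2% higher and 22.2% lower of all tested genes. In sdAb-Con (48 h) against sdAb#07.81 (24 h), *Ddit4* at 1.32, *Trib3* at 1.02 and *Sesn3* at 0.61 were higher, and *Prkaa1*, a catalytic subunit of AMPK, was lower at -0.47, beside 25.1% higher and 25.8% lower of all tested genes.

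Among substrates and effectors, 17 of 20 genes were tested; the counts of *Rps6* and *Eif4b* were not recovered, and *Grb10* was too low. At 48 h under sdAb#07.81, *Gsk3b*, a kinase that AKT inhibits, was higher by 0.41 (limma adjusted p = 0.0285), and *Eif4ebp1*, a repressor of translation that mTORC1 inactivates, was lower at -0.40 (limma adjusted p = 0.0291), beside 6.83% higher and 3.77% lower of all tested genes. *Eif4ebp1* was at 153 and 160 CPM in sdAb-Con (48 h), at 109 and 128 CPM in sdAb#07.81 (48 h), and at 111 and 108 CPM in sdAb#07.81 (24 h). Neither was called with the trend with length removed, with no filter on low counts, nor in the absence of either sdAb-Con (48 h) library or of sdAb#07.81 (48 h) library a, and with upper-quartile scaling 1 of the list was higher and 0 lower, so that *Eif4ebp1* was not called. From 24 h to 48 h of sdAb#07.81, 2 were higher and 3 lower, beside 21.2% and 22.2% of all tested genes. With no filter on low counts, 3 of the list were called. *Pdcd4*, an inhibitor of translation initiation, was at 47.9 and 53.1 CPM at 24 h and at 102 and 96.6 CPM at 48 h, a rise of 0.97 (SE 0.116; limma adjusted p = 1.56e-06), and *Tfeb*, a transcription factor of lysosomal genes, rose by 0.52. *Sgk1*, a kinase that mTORC2 activates, was lower at -0.54, *Rps6kb1*, which encodes S6 kinase, at -0.50 and *Larp1*, which binds mRNAs of ribosomal proteins, at -0.45. Without sdAb#07.81 (48 h) library a or sdAb#07.81 (24 h) library a, 3 of the list were called. In sdAb-Con (48 h) against sdAb#07.81 (24 h), 4 were higher, led by *Pdcd4* at 0.90, *Tfeb* at 0.61 and *Eif4ebp1* at 0.51, and 5 lower, led by *Sgk1* at -0.78, *Larp1* at -0.71 and *Rps6kb1* at -0.67, beside 25.1% and 25.8% of all tested genes.

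**Figure D4:**
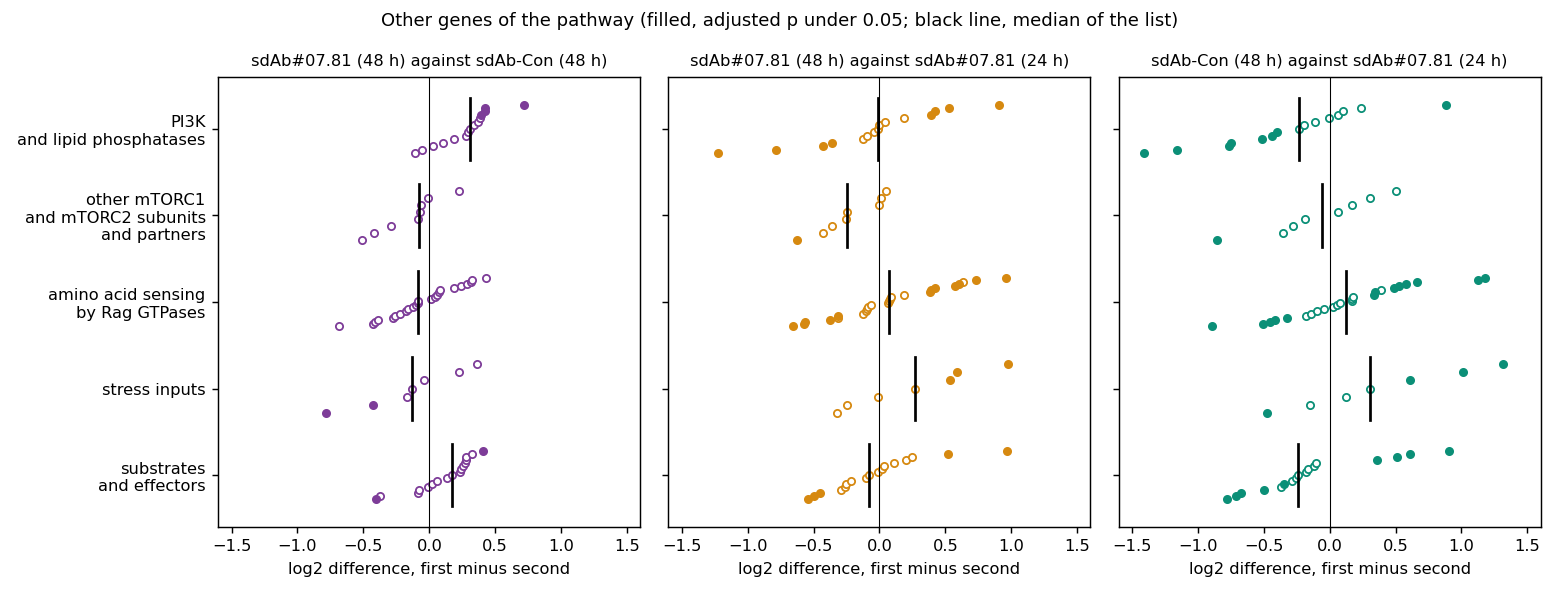
Log2 difference (x axes, first group minus second) of the tested genes of 5 lists of other pathway genes (rows), with filled points for an adjusted p under 0.05 and a black line at the list median. For sdAb#07.81 (48 h) against sdAb-Con (48 h), 8 points are filled, 5 to the right and 3 to the left, and *Ddit4* at -0.78 lies farthest left.

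Across the 6 libraries, among 9608 genes that averaged 10 CPM or more, those whose log2 CPM followed *Mtor* most closely were *Synrg* (Pearson's r = 0.999), *2900026A02Rik* (r = 0.992) and *Adnp2* (r = 0.992). *Synrg* was at 60.6 and 71.2 CPM in sdAb-Con (48 h), at 80.5 and 76.3 CPM in sdAb#07.81 (48 h) and at 90.8 and 88.7 CPM in sdAb#07.81 (24 h). These are the highest of 9608 coefficients over 6 libraries and 3 groups, given as a description.

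In the authors' tables, whose genome build is not given in the sources used here, *Akt1* lies on chromosome 12 from 112620255 to 112641318, *Akt2* on chromosome 7 from 27290977 to 27340251, *Mtor* on chromosome 4 from 148533068 to 148642140 and *Rptor* on chromosome 11 from 119493731 to 119790402. *Rictor* lies on chromosome 15 from 6737860 to 6829882, *Deptor* on the same chromosome from 54975713 to 55122667, *Tsc1* on chromosome 2 from 28531240 to 28581179, *Tsc2* on chromosome 17 from 24814790 to 24851604 and *Rheb* on chromosome 5 from 25007821 to 25047622. *Tsc2* overlaps *Pkd1* on the opposite strand by 693 bases. *Pkd1* had a mean of up to 133% of that of *Tsc2*, and whether the counting used strand is not given, so reads in the shared bases cannot be told apart. Genes overlapping *Akt1*, *Mtor*, *Rptor*, *Rheb* and *Deptor* had means of at most 1.25% of theirs, and none overlapped *Akt2*, *Rictor* or *Tsc1*.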

How the data were processed

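Total RNA of 4T1 cells was sequenced as paired reads of 150 bases. Per the labels, the submitters' processing notes name cutadapt 1.9.1, HISAT2 2.0.1 and HTSeq 0.6.1, and a human build, GRCh38.p14, although the gene IDs are of mouse; the build of the coordinates was not given. The authors deposited 2 tables, in which the signal of each gene is the mean over 4 libraries of counts divided by size factors, printed to 15 digits. The authors' own fold changes, statistics and p-values are in the same tables and were not used.

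Genes with a single read in a table gave the size factor of each library, and the whole counts that give the deposited means of both tables were then enumerated. Exactly 1 solution was found for 28595 of 28712 genes. The other 117, with means of 12347 or more and 19.4% to 23.1% of the summed signal, were left out, so CPM refers to recovered reads. Size factors computed again from the counts differed by at most 0.122%. Libraries in both tables were taken as sdAb#07.81 (48 h), and the others as the second group of their table. Libraries of a group differed by more than counting noise (chi-square per degree of freedom of 8.55 to 11.2); whether they share a culture or an RNA sample was not tested. Count-based models were not run on the recovered counts. Instead, limma 3.58.1 (R 4.3.3), with a mean-variance trend on log2(CPM + 0.5), was fitted to the 6 libraries and 3 groups, over genes with a mean count of at least 10. Each of the 9 genes had at least 545 reads in every library, so the 2 libraries a group has, rather than depth, limit the precision. Transcript lengths came from GENCODE M21, which held 95.5% of the IDs; 2.01% of these had the same start and end, so no coordinates were taken from it. The length trend was removed by a lowess curve in each library.

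The recovery of counts, the limma fit and the removal of the length trend were tested on simulated data. The genes and gene lists were chosen with earlier results of these data known. Named genes were the 9, *Nupr1*, per list and comparison up to 3 called genes of largest difference in each direction, and the 3 genes most like *Mtor*; *Pik3ca*, *Akt1s1* and *Mlst8* were added after their values were seen, and some listed genes are not reported here. The alternatives were other scalings, filters and pseudocount, only the 4 libraries compared, each library left out, the length trend removed and a difference of at least 1.5 times. All else ran in Python 3.11.15 (sympy 1.14.0, numba 0.67.0, pandas 2.3.3, numpy 2.4.6, scipy 1.17.1, matplotlib 3.10.9).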

Additional observations from a re-analysis of the deposited data

How the results depend on the processing

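For sdAb#07.81 (48 h) against sdAb-Con (48 h), 3 of the 9 genes were called with upper-quartile scaling, 2 with only the 4 libraries compared, 0 with no filter on low counts, 0 with the length trend removed, and 1 to 2 with each library left out. From 24 h to 48 h of sdAb#07.81, 2 were called with total-count scaling, with no filter and with a difference of at least 1.5 times required, and 2 to 4 with each library left out. For sdAb-Con (48 h) against sdAb#07.81 (24 h), 3 were called with at least 1.5 times required, and 5 to 7 with each library left out. The other counts of called genes among the 9 were within 1.5 times of those given. *Akt1*, *Deptor* (both against sdAb#07.81 (24 h)) and *Rictor* (sdAb-Con (48 h) against sdAb#07.81 (24 h)) passed in 13 of 13 alternatives, with log2 differences of -0.74 to -0.67 and -0.58 to -0.45 for *Akt1*, -0.94 to -0.65 and -1.34 to -0.75 for *Deptor* and -0.98 to -0.43 for *Rictor*. The call of *Rictor* at 48 h passed in 11 of 13, with 0.34 to 0.81 and adjusted p up to 0.107.

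Among the 9 genes, signs changed only for differences that were called neither in the report nor in that alternative. At 48 h, *Rptor* was -0.075 and *Tsc1* -0.040 with the length trend removed; with each library left out, *Rptor* ranged from -0.084 to 0.36, *Rheb* from -0.21 to 0.0059 and *Tsc2* from -0.24 to 0.076. For sdAb-Con (48 h) against sdAb#07.81 (24 h), *Akt2* was -0.010 with upper-quartile scaling, and *Rptor* was 0.024 and *Tsc2* 0.0072 with the length trend removed.

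Over all genes, the 1468 calls at 48 h became 7 with no filter, 516 with the length trend removed and 621 with at least 1.5 times required, and the 6022 and 7052 of the other comparisons became 3627 and 4454 with the last. The causes were not tested, apart from the stricter size. With a library left out, its group has a single library, assumed to vary like the others. No paired analysis was possible because the recovered libraries carry no replicate numbers. With 2 libraries a group, an exact permutation test cannot reach the threshold.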
